A study of Arabidopsis thaliana with 4 samples.

Results

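Auxin in a plant cell is kept in check by enzymes that oxidise it, bind it to sugars or amino acids, methylate it, or set it free again from its amino acid conjugates. The transcripts of 10 such genes of Arabidopsis thaliana were looked up here in seedlings grown with ASP and in seedlings grown without it. The genes were listed by locus: the dioxygenase genes DAO1 and DAO2, the glucosyltransferase genes IAGLU, UGT74E2 and UGT84B1, the methyltransferase gene IAMT1, and the amidohydrolase genes ILR1, IAR3, ILL2 and ILL6. Of the 10 loci, 8 had a probe set that named no other locus, and these 8 are the genes described, out of 21226 genes with a probe set of their own. The probe sets of IAR3 and ILL2 each named a second locus and are given apart from the 8.

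Whole 5-day-old seedlings of accession Columbia 0 had been raised on 1/2 MS agar that held ASP (2 arrays) or no ASP (control, 2 arrays). The sample descriptions of both groups begin with WT (wild type). ASP is the submitters' name for a synthetic piperazine that carries a bromophenoxyacetyl group on one nitrogen and a fluorophenylsulfonyl group on the other. The sources used here do not give its dose. RNA was hybridised to Affymetrix arrays, and the arrays of a group were called biological replicates in the labels, with nothing said about separate plates or days, so p-values measure only the spread among these 4 samples.

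Indole-3-acetic acid, the main natural auxin, is inactivated along several routes. GH3 enzymes join it to amino acids, and DAO1 oxidises auxin or its amino acid conjugates, which is a major route of irreversible loss in Arabidopsis seedlings. Glucosyltransferases make glucose esters, IAMT1 makes the methyl ester, and amidohydrolases of the ILR1 family cleave amino acid conjugates.

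The arrays called 15075 and 15706 of 22746 probe sets present with ASP and 15415 and 15282 in control. Of 5 shoot markers (all present on all 4 arrays), 5 were higher with ASP, by a median log2 fold change of 0.29. Among the 14261 probe sets present on all 4 arrays, 7201 were higher. Groups did not overlap for 3 of the 5, beside 3050 of the 14261 as higher. The summed linear signal of the shoot markers was 93139 and 77770 with ASP against 74446 and 70956 in control. Of 6 root markers, 5 were lower, beside 11934 of all 22746 probe sets. The 6 had a median of -0.22 and a summed signal of 1999 and 2030 with ASP against 2836 and 2248 in control. PLT1 was called absent on all 4 arrays, and without it 4 of 5 were lower, with a median of -0.13. Among the root markers only CASP1 had groups that did not overlap, beside 20.9% of all probe sets as lower. It was at 8.98 and 8.92 with ASP against 10.26 and 9.38 in control. A general fall of root markers is not shown. Of 6 seed storage markers 5, and of 4 flower markers 3, were absent on all 4 arrays. No marker passed limma's test with or without the intensity trend. In whole seedlings, fewer cells of a type and less RNA per cell cannot be told apart. Among the array maker's spike-in probe sets 38 of 45 were higher with ASP, with a median of 0.17, while the 6 plant control probe sets for the 5′ ends of the actin, ubiquitin and GAPDH transcripts were all lower (median -0.19). The part of these shifts in the values below was not tested.

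IAGLU was the gene of the 8 with the largest difference among those detected, and it was 2.68-fold higher with ASP. UGT74E2 was 1.78-fold higher, IAMT1 was present with ASP and absent in control, and for both the 2 ASP arrays lay above the 2 control arrays. The oxidation genes DAO1 and DAO2 and the amidohydrolase gene ILL6 had overlapping groups, and ILR1 was lower with ASP by a log2 fold change of -0.28. None of the 8 passed limma's test at an adjusted p under 0.05, where 0% of all 22746 probe sets did, and 2 of the 8, IAGLU and IAMT1, had an unadjusted p under 0.05, beside 7.42% of all probe sets. When limma let its prior variance depend on brightness (the intensity trend), 1 of the 8, IAGLU, passed, beside 0.317% of all probe sets in either direction and 0.149% as higher.

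**Figure D1:**
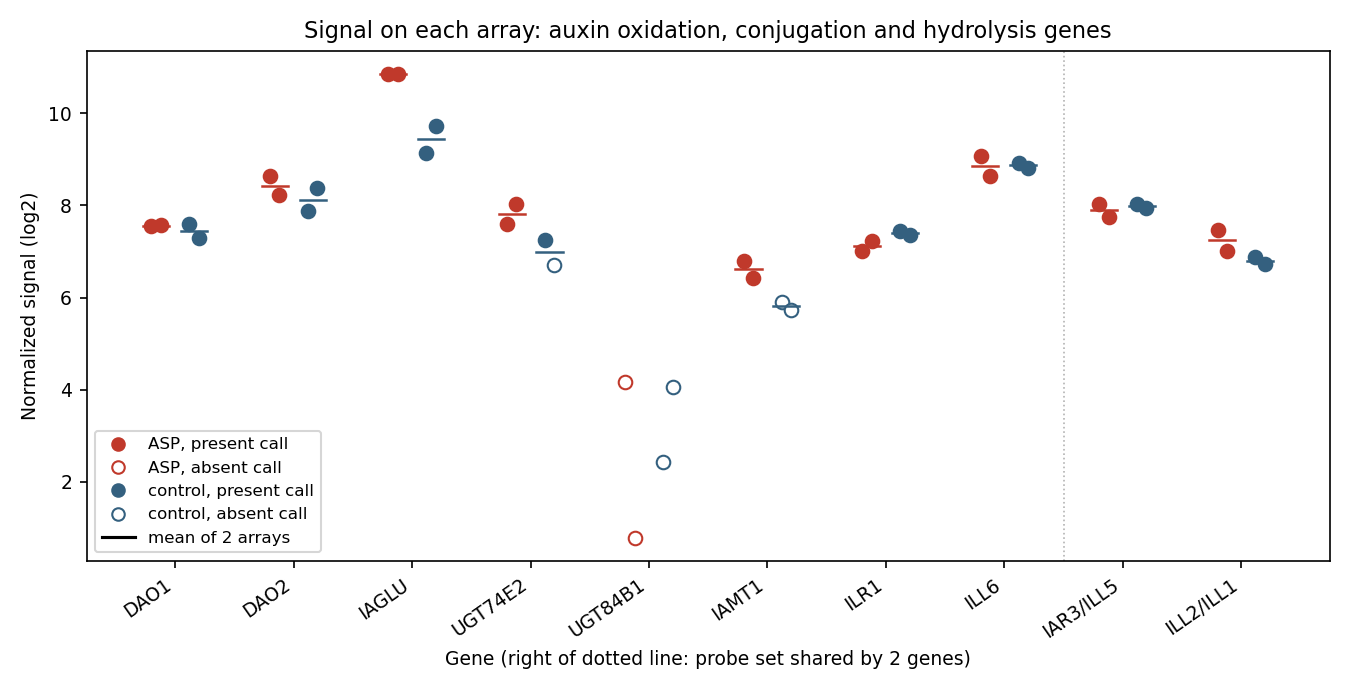
Normalized log2 signal of each gene on each array, ASP left of control, with filled circles for present calls, open circles for absent calls and a line at the mean of 2 arrays (not drawn for UGT84B1). The ASP arrays lie above the control arrays for IAGLU, UGT74E2, IAMT1 and the ILL2/ILL1 probe set, and the 2 probe sets shared by several genes stand right of the dotted line.

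Among the glucosyltransferase genes, IAGLU (AT4G15550, also known as UGT75D1) encodes a glucosyltransferase annotated as acting on indole-3-acetic acid. Its log2 signal was 10.86 and 10.85 on the ASP arrays, against 9.14 and 9.73 on the control arrays. The ASP arrays lay within 0.01 of each other and above both control arrays, which lay 0.59 apart. The means were 10.86 ± 0.01 with ASP and 9.44 ± 0.42 in control (SD, n = 2 each), a log2 fold change of 1.42 with a 95% interval from 0.63 to 2.22. limma without a trend gave an adjusted p of 0.508, and the intensity trend gave 0.0242 with an interval from 1.01 to 1.84. Of the 14261 probe sets present on all 4 arrays, 15 had a log2 fold change at least as high, IAGLU among them. The within-group SD of IAGLU, 0.30 over both groups, was above the median of 0.12 over the 2086 probe sets within 0.5 log2 units of its brightness.

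The difference of IAGLU kept its direction whichever array was left out, between 1.13 and 1.72. The call with the intensity trend held without control replicate 2 (adjusted p 0.0165) and was lost without either ASP array (0.276 without replicate 1, 0.225 without replicate 2) and without control replicate 1 (0.0699). The authors' deposited table of 148 probe sets used 3 columns per group, 1 of which in each group was not used here. Of the 8 genes it listed only IAGLU, with a fold of 2.55 and an unadjusted p of 0.00629. The label of that table names cut-offs on p and fold, so it could not list genes with smaller changes. It includes the arrays used here and is not separate evidence.

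**Figure D2:**
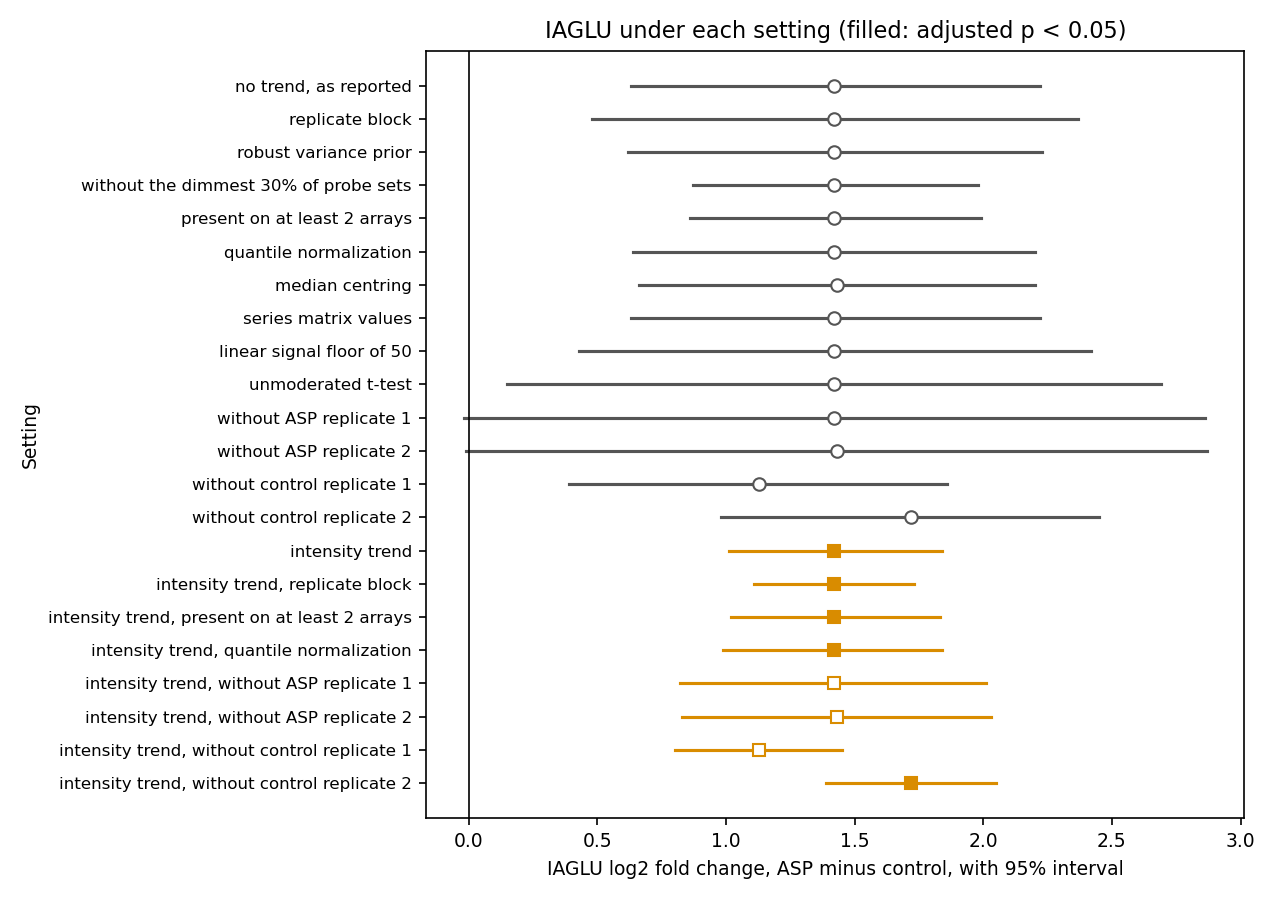
Log2 fold change of IAGLU, ASP minus control, with its 95% interval (horizontal axis) under each setting (vertical axis), with circles for limma without a trend and the unmoderated test and squares for the intensity trend, filled where the adjusted p was under 0.05. Every point lies above 0, from 1.13 to 1.72, and the filled squares are intensity trend fits.

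UGT74E2 (AT1G05680) encodes a glucosyltransferase that prefers the auxin precursor indole-3-butyric acid and is known as a stress-induced gene. Its log2 signal was 7.60 and 8.03 with ASP, against 7.26 and 6.71 in control. Both ASP arrays lay above both control arrays, and the dimmer control array was called absent. The log2 fold change was 0.83 (95% interval -0.07 to 1.73, limma adjusted p 0.703), and with the intensity trend the interval was 0.18 to 1.47 and the adjusted p 0.39. Leaving out 1 array moved it between 0.55 and 1.10.

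UGT84B1 (AT2G23260) encodes a glucosyltransferase with high activity on indole-3-acetic acid in vitro. It was called absent on all 4 arrays, at 4.17 and 0.78 with ASP and 2.43 and 4.06 in control, so it has no fold here. Its neighbour UGT84B2 was absent on all 4 arrays as well. Thus 1 of the 3 listed glucosyltransferase genes could be followed on all 4 arrays, 1 on 3 and 1 on none.

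For methylation, IAMT1 (AT5G55250) encodes the methyltransferase that turns indole-3-acetic acid into its methyl ester, which has no activity until an esterase cleaves it. Its log2 signal was 6.79 and 6.43 with ASP, present on both arrays, against 5.91 and 5.73 in control, absent on both. The groups did not overlap, and the means were 6.61 ± 0.26 with ASP and 5.82 ± 0.13 in control (SD, n = 2 each). IAMT1 was at least 1.73-fold higher with ASP, taken against its own control signals, which were above the dimmest signals called present on those arrays. That figure therefore equals the ratio of the fitted means and sets no limit for the spread between arrays. Its fitted log2 fold change was 0.79 with a limma adjusted p of 0.604, and 0.564 with the intensity trend.

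For oxidation, DAO1 (AT1G14130) and DAO2 (AT1G14120), next to each other on chromosome 1, encode dioxygenases, and the deposited annotation names both only as members of the oxoglutarate and iron dependent family. The log2 signal of DAO1 was 7.55 and 7.58 with ASP, against 7.60 and 7.29 in control. Both ASP values lay between the 2 control values. Its log2 fold change was 0.12 (95% interval -0.42 to 0.66, limma adjusted p 0.903), and it was -0.04 without control replicate 2. DAO2 was at 8.64 and 8.22 with ASP, against 7.88 and 8.37 in control. Its groups overlapped too, with a log2 fold change of 0.31 (interval -0.55 to 1.17, limma adjusted p 0.844). Both intervals hold differences in either direction, so the arrays do not show that either gene was the same in both groups.

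For hydrolysis, ILR1 (AT3G02875) encodes an amidohydrolase that releases indole-3-acetic acid from its leucine and phenylalanine conjugates. Its log2 signal was 7.02 and 7.23 with ASP, against 7.45 and 7.36 in control. Both ASP arrays lay below both control arrays, by a log2 fold change of -0.28 (95% interval -0.76 to 0.20, limma adjusted p 0.783). The median shift of the spike-in probe sets was 0.17, in the opposite direction, and that of the 6 plant 5′ control probe sets was -0.19, in the same direction. Their part in this value was not tested.

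ILL6 (AT1G44350) encodes a family member that cleaves the isoleucine conjugates of jasmonate. Its log2 signal was 9.07 and 8.65 with ASP, against 8.92 and 8.81 in control. The ASP values lay on either side of the control values, and the log2 fold change was -0.01 (95% interval -0.65 to 0.64, limma adjusted p 0.996). Its direction turned when ASP replicate 2 (0.21) or control replicate 1 (0.04) was left out.

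The other listed hydrolase genes cannot be told from a near relative. The probe set of IAR3, whose enzyme cleaves the alanine conjugate of auxin and also acts on jasmonate conjugates, names ILL5 as well. It stood at 8.04 and 7.76 with ASP, against 8.03 and 7.94 in control, with overlapping groups and a log2 fold change of -0.09 (limma adjusted p 0.93). The probe set of ILL2, an amidohydrolase gene that lies next to ILL1 on chromosome 5, names ILL1 as well. It stood at 7.46 and 7.02 with ASP, against 6.87 and 6.73 in control, with both ASP arrays above both control arrays and a log2 fold change of 0.44 (limma adjusted p 0.769). ILL3, the remaining family member with a probe set of its own, was at 7.71 and 6.71 with ASP, against 6.83 and 7.20 in control (log2 fold change 0.19, limma adjusted p 0.939). No hydrolase gene passed the test with or without the intensity trend.

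**Figure D3:**
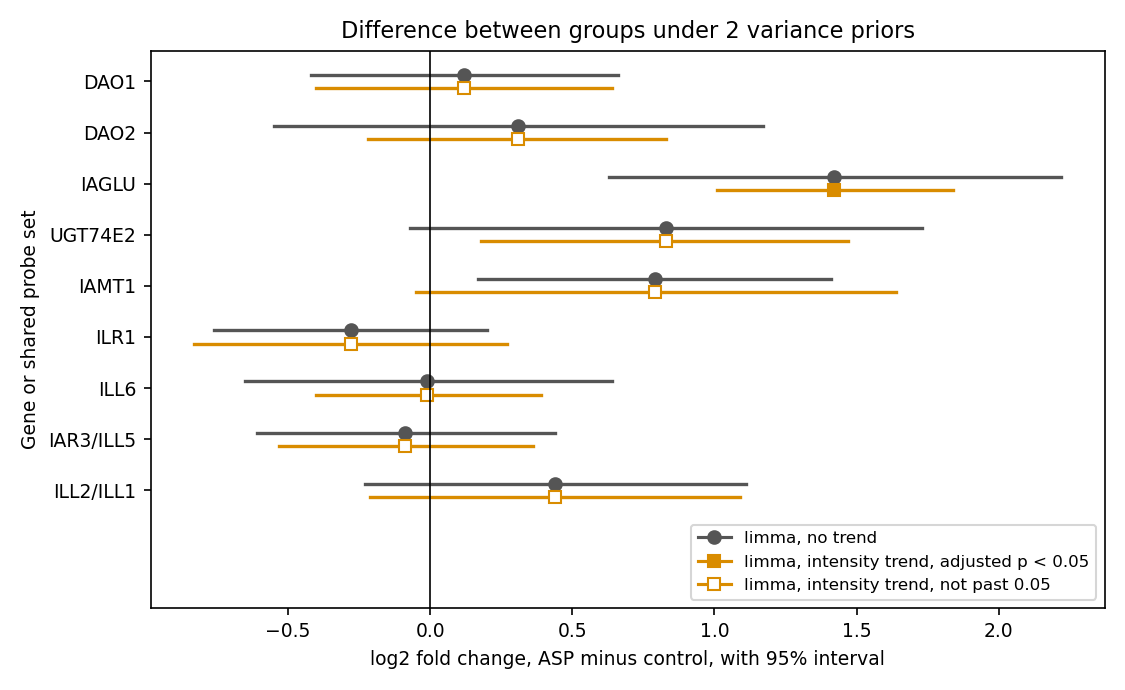
Log2 fold change, ASP minus control, with its 95% interval (horizontal axis) for 7 detected genes and 2 shared probe sets (vertical axis), from limma without a trend (circles) and with the intensity trend (squares, filled where the adjusted p was under 0.05). IAGLU, at 1.42, is the only filled square, and UGT84B1, absent on all arrays, is left out.

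Over all 8 genes, 5 had a log2 fold change above 0, beside 47.5% of all probe sets, and the median was 0.21, beside -0.02 over all probe sets. UGT84B1 is counted there although it was absent on all 4 arrays, and over the 7 others 5 were above 0 with a median of 0.31. Over the 17079 probe sets not absent on all 4 arrays, 8396 were above 0 with a median of -0.01. IAGLU, UGT74E2 and IAMT1 were higher with ASP with no overlap between groups, 3 of 8 beside 18.5% of all probe sets, and ILR1 was lower with no overlap, 1 of 8 beside 20.9%. The genes of oxidation and hydrolysis among the 8 ran from -0.28 to 0.31. The shared hydrolase probe sets, not among the 8, were at 0.44 (ILL2/ILL1, groups with no overlap) and -0.09 (IAR3/ILL5, overlapping). The precision differed between the genes: the within-group SD of DAO2 was 0.33 beside a median of 0.16 at like brightness, and that of IAMT1 0.20 beside 0.29.

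**Figure D4:**
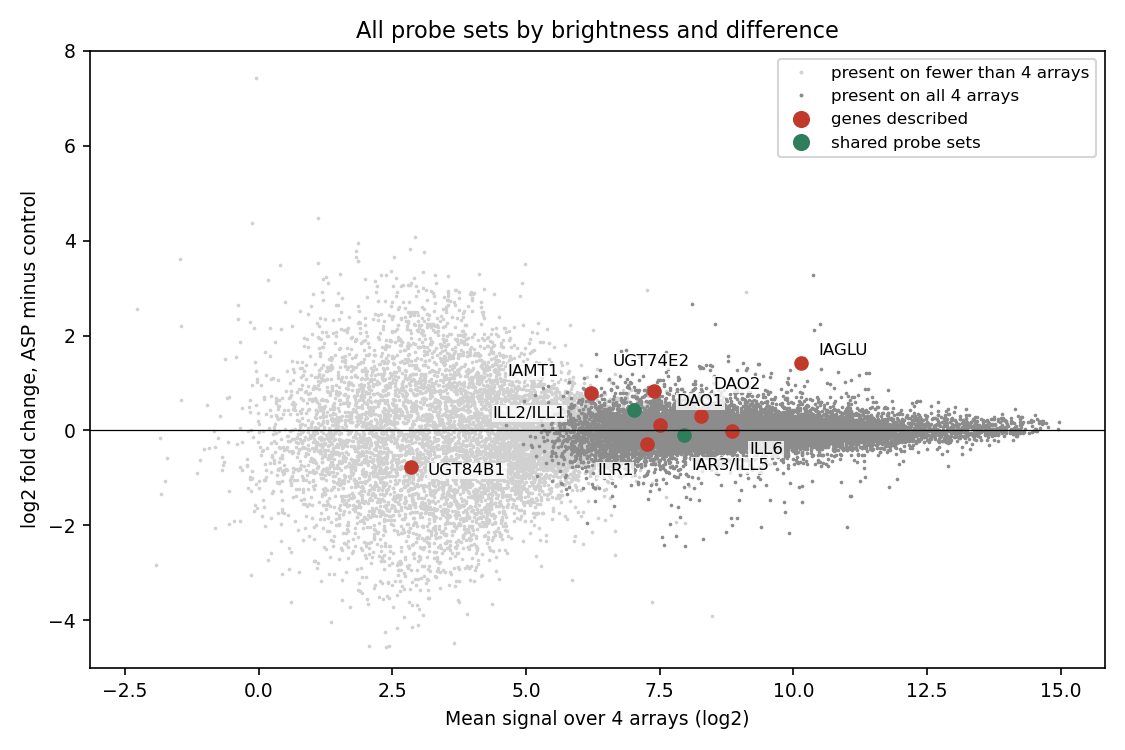
Mean log2 signal over 4 arrays (horizontal axis) against log2 fold change, ASP minus control (vertical axis), for all 22746 probe sets, with those present on all 4 arrays in dark grey, the 8 genes in red and the 2 shared probe sets in green. IAGLU, at 1.42, stands above most probe sets of its brightness, and UGT84B1 lies among dim probe sets whose values spread widely.

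Genes of the neighbouring steps were taken from 7 lists by family. Of 54 listed loci 46 had a probe set of their own, 27 with a log2 fold change above 0 and 19 below, with a median of 0.10. Of the 46, 8 were absent on all 4 arrays, and over the 38 others 24 were above 0 and 14 below, with a median of 0.14. limma without a trend called 0 of the 46, and 9 had an unadjusted p under 0.05, beside 7.42% of all probe sets. With the intensity trend 4 rose, beside 0.149% of all probe sets, and 0 fell.

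The group II GH3 genes, which encode the enzymes that join auxin to amino acids, held 3 of these 4 calls. Of 6 measured, 6 had a log2 fold change above 0, beside 47.5% of all probe sets, with a median of 1.70. GH3.1 was absent on all 4 arrays, and the median over the 5 others was 1.24. GH3.3 was at 12.01 and 12.02 with ASP, against 8.77 and 8.69 in control (log2 fold change 3.28, limma adjusted p 0.265, and 2.46e-05 with the intensity trend). WES1 had a log2 fold change of 2.25 (intensity trend adjusted p 0.00163) and DFL1 of 1.24 (0.0242). IAGLU, at 1.42, thus lay between WES1 and DFL1 in log2 fold change. The difference between these values was not tested. GH3.17 and GH3.9, named after their values were seen, had smaller log2 fold changes. These were 0.44 for GH3.17 (intensity trend adjusted p 0.521) and 0.08 for GH3.9 (0.971), whose groups overlapped.

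Among the methylesterases, MES17 (AT3G10870) encodes the enzyme annotated as cleaving the methyl ester that IAMT1 makes. MES17 was at 7.94 and 7.68 with ASP, present on both arrays, against 6.66 with a marginal and 6.24 with an absent call in control. Both ASP arrays lay above both control arrays, and the fitted log2 fold change, which rests on control signals with no present call, was 1.36 (limma adjusted p 0.486, and 0.128 with the intensity trend). In the authors' deposited table, with the column per group that was not used here, its fold was 2.09. MES1 had a log2 fold change of -0.37 and MES16 of 0.35, and MES4 was absent on all 4 arrays. Of 9 measured 4 were above 0, beside 47.5% of all probe sets. Without the 2 that were absent on all 4 arrays 3 of 7 were above 0, beside 8396 of 17079 probe sets left after the same step. limma called 0 of the 9 with or without the intensity trend, and 1 had an unadjusted p under 0.05. Of the methyltransferases related to IAMT1, BSMT1 and JMT, which methylate salicylate and jasmonate, were both absent on all 4 arrays.

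Among 13 measured relatives of the 3 glucosyltransferases, 5 were above 0 and 8 below, with a median of -0.19. Without the 3 that were absent on all 4 arrays, 5 were above 0 and 5 below, with a median of -0.03. limma called 0 of the 13 with or without the intensity trend, and 3 had an unadjusted p under 0.05, beside 7.42% of all probe sets. UGT75B1, annotated as acting on 4-aminobenzoate, was at 7.46 and 7.24 with ASP, against 6.63 and 6.24 in control (log2 fold change 0.92, limma adjusted p 0.573). AT4G14090, annotated as an anthocyanin glucosyltransferase, was absent on both ASP arrays (1.74 and 3.34), against 6.26 with a marginal and 6.14 with an absent call in control (limma adjusted p 0.492). UGT74B1, of glucosinolate synthesis, was at 10.03 and 10.18 with ASP, against 10.65 and 10.51 in control (-0.47, limma adjusted p 0.67), and UGT84A4 was at 0.30 (0.775). UGT74D1, an enzyme known to glucosylate auxin and its oxidised form and named here after its values were seen, had a log2 fold change of 0.12 (adjusted p 0.916).

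Since ILL6 and IAR3 also act on jasmonate conjugates, 8 measured genes of jasmonate catabolism and response were set beside them. Of these 4 were above 0 and 4 below, with a median of 0.07, and limma called 0 with or without the intensity trend, with 0 at an unadjusted p under 0.05. LOX2 had a log2 fold change of 0.32, CYP94B1 of 0.29 and CYP94C1, which oxidises the isoleucine conjugate, of -0.43, while JAZ5 had no present call.

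UGT74E2 was set beside 7 measured xenobiotic response genes. Of these 6 were above 0, beside 47.5% of all probe sets, with a median of 0.37, and 1 passed with the intensity trend, beside 0.149% of all probe sets as higher. That gene was the cytochrome P450 gene CYP81D11, at 9.81 and 9.30 with ASP, against 7.77 and 8.21 in control (log2 fold change 1.56, limma adjusted p 0.51, and 0.0321 with the intensity trend). NAC032 was at 0.57 and UGT73B5 at 0.37, and UGT73B4 was at 6.25 (absent) and 6.32 (present) with ASP, against 5.57 and 5.50 in control, both absent. GSTU24, named after its values were seen, was at -0.41.

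**Figure D5:**
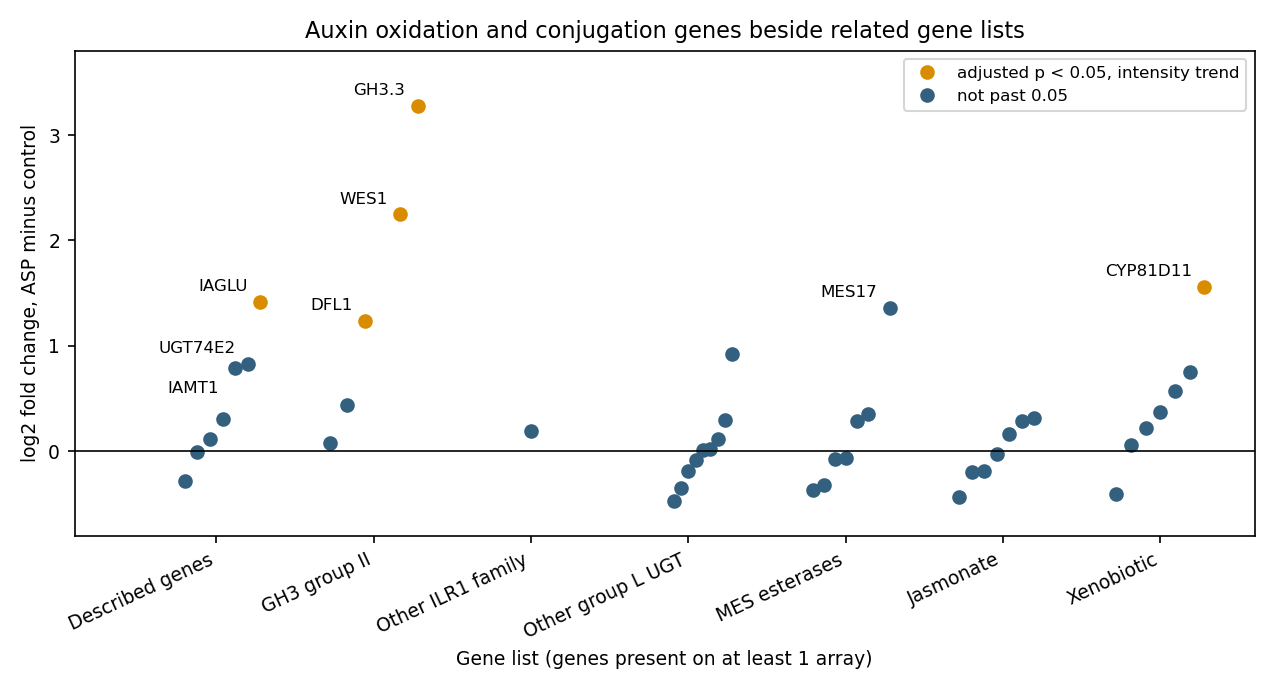
Log2 fold change, ASP minus control (vertical axis), of each gene present on at least 1 array, by list (horizontal axis), in orange where the adjusted p with the intensity trend was under 0.05 and in blue otherwise. The orange points are IAGLU, GH3.3, WES1, DFL1 and CYP81D11, and the 2 SABATH methyltransferase genes, absent on all arrays, are not drawn.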

How the data were processed

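Signal values in the deposited workbook are normalized and on the log2 scale, per the file headers, and each has a call (present, marginal, absent). The authors' way of summarising probes is not given in the sources used here. A deposited table of the authors also gave an unadjusted p-value and a ratio (fold change) of linear means from 3 columns per group, per the file headers. Of the workbook's value columns, 4 (2 of them log2 signal) matched no sample and were not used here. These are 1 signal and 1 call column per group, whose names differ from the used ones in a prefix and the letter B, and the authors' table includes them.

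Arrays were grouped by title. Without 64 control probe sets, 22746 entered a two-sided test by limma 3.58.1 under R 4.3.3 (lmFit, then eBayes with no trend), with Benjamini-Hochberg adjustment over all of them and a threshold of 0.05. The prior degrees of freedom were 1.34, and 6.06 with the intensity trend. The fits were tested on simulated data whose spread followed brightness alone. That test does not cover genes with a larger spread than others of their brightness, such as IAGLU. Gene names came from the workbook and the RefSeq gene table of TAIR10.1. A fold is given as "at least" where one group had no present call: the brighter mean against, per dim array, whichever was higher, the lowest signal called present or the gene's own. Genes absent on all arrays got no fold.

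The genes, lists and tests were chosen with earlier results of these data known. Each list names the genes with the 4 smallest p-values and those past the intensity trend fit. Alternatives were the intensity trend, a robust prior, a replicate block, 2 filters, 2 normalizations, the series matrix, a floor of 50, an unmoderated test and leaving out each array, and 7 combinations with the trend added after the data were seen. The number of arrays limits the precision.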

Additional observations from a re-analysis of the deposited data

How the results depend on the processing

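Of the settings chosen first, the intensity trend called 1 of the 8 genes, IAGLU, and each other setting 0. Of the combinations with the trend added after the data were seen, 1 gene passed with the replicate block, after leaving out probe sets present on fewer than 2 arrays and after quantile normalization, and 0 to 1 when an array was left out. IAGLU's log2 fold change ran from 1.13 to 1.72 over all alternatives. The number of the 8 above 0 ran from 5 to 7.

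Over all probe sets, 0 were called without the trend and 72 with it, 18 without the dimmest 30%, 19 when present on at least 2 arrays and 1 with the floor of 50. With the trend, 321 were called with the replicate block, 193 when present on at least 2 arrays, 63 after quantile normalization, 11 without ASP replicate 1, 9 without ASP replicate 2, 22 without control replicate 1 and 37 without control replicate 2. For the 46 genes of related lists the counts were 0 without the trend, 4 with it, 2 without the dimmest 30%, 2 when present on at least 2 arrays, and with the trend 6 under the replicate block, 5 when present on at least 2 arrays, 3 after quantile normalization and 2 with any one array left out. The filters test fewer and brighter probe sets. MES17, among the 5 called with the trend, met the filter on present calls only through its ASP arrays.

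Directions that turned were those of DAO1 without control replicate 2 (-0.04, with a range to 0.27), the IAR3 probe set without ASP replicate 2 (0.05, range from -0.23), and ILL6 without ASP replicate 2 (0.21) or control replicate 1 (0.04, range from -0.22), with and without the trend, and the cause was not tested. Same-numbered arrays did not deviate together (correlation -0.0238 over probe sets present on all 4 arrays). With 2 arrays per group this cannot show whether they shared a batch, and the labels do not say what a number marks. With the trend, 321 probe sets were called under the replicate block, beside 72 without the block. With the replicate block and no trend, IAGLU's log2 fold change stayed 1.42 (limma adjusted p 0.721) and 0 probe sets were called.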
